A study of Oryza sativa with 23 samples.

Results

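In 159 rice genes, the balance between the annotated transcripts of the gene shifted in roots under excess iron, and it shifted the same way in both varieties studied. A transcript's share is its part of the gene's summed TPM (a transcript level scaled to transcript length and library size), given here in percent. A gene was taken when it had at least 2 annotated transcripts, reached 5 TPM in each of the 4 root groups, and held a transcript whose mean share changed by at least 20 percentage points in the same direction in Hacha and in Lachit. The genes were thus chosen by the TPM values of the root libraries themselves. All root values below are therefore a description without a test, and tests are given only for leaves, whose libraries the rule did not use. The 159 genes are 4.53% of the 3507 genes that met the level and transcript conditions, out of 5242 genes with several transcripts and 35679 genes in all.

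The libraries were made from whole roots and L2 leaves of rice (Oryza sativa) plants aged 11 days. Hacha derives from a cross of CRM 53 and IR 64, and Lachit from a cross of CRM 13-3241 and Kalinga 2. All plants grew in a full nutrient solution with 50 µM iron as an EDTA chelate at pH 6.2. From day 9, treated plants spent 2 days in that solution with 15 mM iron sulfate added at pH 5.2, so the contributions of iron, sulfate and acidity cannot be told apart. There were 3 libraries for each combination of variety, organ and solution, except for excess-iron roots of Hacha, with 2. The 23 libraries held between 16659607 and 33386840 estimated counts. Nothing says whether replicates were separate plants, so the spread between them may be technical. Fewer cells of a type and less RNA per cell cannot be told apart in whole organs.

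A gene can give several messenger RNAs when exons are joined in different ways, when an intron is kept, or when transcription starts or ends at another site. The alternatives may code for different proteins, may be degraded early, or may differ only outside the coding part. Splicing in plants is known to respond to heat, salt and nutrient stress, so that the makeup of a gene's transcripts can change while its total does not. Short reads seldom cover a whole transcript. The program that made these values assigns reads that fit several transcripts by likelihood, so a share is an estimate that rests on the few stretches by which the transcripts differ. The files give no error for it beyond the spread between libraries, and the library kit does not mark strand. The genes are known here by identifier alone, whose first digits carry the chromosome.

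A change of share is not always a change of the leading transcript. The most abundant transcript differed between control and excess-iron roots in both varieties in 51 of the 159 genes, and it was the same pair of transcripts in all 51. In 40 genes it differed in Hacha alone, in 9 in Lachit alone, and in 59 in neither variety. A further 214 genes outside the list also had another leading transcript in both varieties, without meeting the rule on shares. The genes are therefore called genes with a shifted transcript share here, and a switch is stated only where the leading transcript differed. Of the 159 genes, 97 had 2 annotated transcripts and 62 had 3 or more. That is 39.0% with 3 or more, against 22.8% of the 3348 other genes that could have been chosen. The genes lay on all 12 chromosomes, from 3.09% of the eligible genes of chromosome 4 to 7.26% of those of chromosome 11.

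The widest shift was in OS03G0195900 on chromosome 3, whose transcript 02 (1778 bases) replaced transcript 01 (1681 bases). Transcript 02 held 0.0%, 0.0% and 24.7% of the gene's TPM in control roots of Hacha and 89.2% and 100.0% under excess iron. In Lachit it held 4.4%, 0.0% and 5.9% in control and 83.9%, 81.3% and 0.0% under excess iron. All excess-iron libraries thus stood above all controls in Hacha, whereas in Lachit library 3 went against the others. The whole gene stood at 3.23 TPM in that library, the lowest of the 11 root libraries, and the mean share of the Lachit group was 55.1% ± 48 (SD, n = 3).

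In OS10G0208500 on chromosome 10, the gene total and the share of transcript 01 were both higher under excess iron. Transcript 01 (4473 bases) held 71.6%, 46.9% and 29.8% in control roots of Hacha and 94.8% and 97.3% under excess iron. In Lachit the shares were 48.1%, 43.3% and 29.5% in control and 91.0%, 92.2% and 91.7% under excess iron, with no overlap in either variety. The summed level went from 6.68 ± 2.7 TPM (SD, n = 3) to 79.4 and 146 TPM in Hacha, and from 6.86 ± 2.2 to 65.7 ± 18 TPM (n = 3 each) in Lachit. Transcripts 02 (7155 bases) and 03 (1601 bases), which held the rest, stood at 23.5% and 27.1% in control roots of Hacha and 31.4% and 28.3% in those of Lachit. Under excess iron they stood at 1.9% and 2.0% in excess-iron roots of Hacha and 4.1% and 4.2% in those of Lachit. In mean TPM transcript 03 was not lower, at 1.52 in control and 2.08 under excess iron in Hacha and 1.87 and 2.73 in Lachit.

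The gene with the largest difference in total level, lower under excess iron, also had another leading transcript. OS02G0714600 on chromosome 2 had 393, 529 and 534 TPM in control roots of Hacha and 20.2 and 19.8 TPM under excess iron. In Lachit it had 425, 814 and 449 TPM in control and 20.3, 22.0 and 14.7 TPM under excess iron, so that every treated library was far below every control. What remained was mostly transcript 02 (1221 bases): its share was 25.7%, 22.2% and 17.9% in control roots of Hacha and 73.3% and 62.0% under excess iron. In Lachit the share went from 35.0%, 21.8% and 26.1% to 83.0%, 84.6% and 85.9%. Transcript 01 (1381 bases) led in control roots of both varieties. In mean TPM both transcripts were lower under excess iron. Transcript 02 went from 104.7 to 13.55 TPM in Hacha and from 147.8 to 16 TPM in Lachit. Transcript 01 went from 380.6 to 6.47 TPM in Hacha and from 415 to 2.97 TPM in Lachit.

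OS03G0230300, also on chromosome 3, was higher in total under excess iron, and its short transcript gained share. Its level was 26.7, 23.1 and 18.3 TPM in control roots of Hacha and 268 and 417 TPM under excess iron, and in Lachit it was 25.4, 25.7 and 14.2 TPM against 163, 140 and 117 TPM. Transcript 02, of only 260 bases, held 17.5%, 4.5% and 11.9% in control roots of Hacha and 57.8% and 57.6% under excess iron. In Lachit it held 21.4%, 15.7% and 9.5% against 56.3%, 49.0% and 46.4%. TPM divides by an effective length, the number of positions at which a fragment can start, which was 98.7 bases at the median for this transcript and 1645.7 for transcript 01. Counted in reads, transcript 02 held 0.779% and 7.56% of the gene in control and excess-iron roots of Hacha and 1.1% and 5.93% in those of Lachit. The same holds for OS05G0302300 on chromosome 5, whose transcript 02 (238 bases) went from 7.97% ± 14 (SD, n = 3) to 56.4% and 57.4% of the TPM in Hacha, but from 0.259% to 3.18% of the reads.

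In 3 further genes a transcript that was minor in control roots gained. Transcript 02 of OS02G0661100 on chromosome 2 held 0.0%, 1.0% and 0.0% in control roots of Hacha and 31.1% and 52.5% under excess iron. In Lachit it was listed at 0.0% in all 3 controls and at 55.3%, 40.4% and 45.1% under excess iron. Its reads were 0, 8 and 0 in control roots of Hacha and 219 and 279 under excess iron. Transcript 02 of OS05G0557200 on chromosome 5 held 13.3%, 0.2% and 0.3% in control roots of Hacha against 76.4% and 66.8%, and 0.0%, 18.5% and 0.3% in those of Lachit against 61.4%, 37.8% and 35.4%. The transcripts of this gene differ by little in length, 1872 bases for transcript 02 and 1906 for transcript 01. In OS06G0559500 on chromosome 6, the longest of 3 transcripts, 02 (1883 bases), held 11.2%, 8.0% and 4.5% in control roots of Hacha and 82.9% and 91.2% under excess iron. In Lachit the change was smaller, from 5.9%, 5.6% and 5.3% to 48.6%, 34.6% and 34.8%, and transcript 01 still led there with a mean of 48.8%.

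The tightest replicates were in OS05G0521300 and OS03G0223000. In OS05G0521300 on chromosome 5 the long transcript 04 (4006 bases) held 81.1%, 78.6% and 82.5% in control roots of Hacha and 23.6% and 20.8% under excess iron. In Lachit it held 79.3%, 81.5% and 84.5% against 48.3%, 48.4% and 47.9%. The gain was spread over the other transcripts, most of it in transcript 03 (753 bases), which went from a mean of 6.1% to 45.7% in Hacha and from 2.1% to 25.9% in Lachit. In OS03G0223000 on chromosome 3, transcript 01 (1565 bases) held 22.7%, 21.5% and 21.5% in control roots of Hacha and 79.2% and 71.5% under excess iron. In Lachit it held 27.3%, 25.2% and 23.6% against 57.9%, 59.6% and 54.8%. The total of this gene was lower under excess iron, at 16.7 ± 1.6 TPM (SD, n = 2) against 104 ± 2.1 TPM (n = 3) in Hacha and at 42.2 ± 1.8 against 98.7 ± 15 TPM (n = 3 each) in Lachit.

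**Figure D1:**
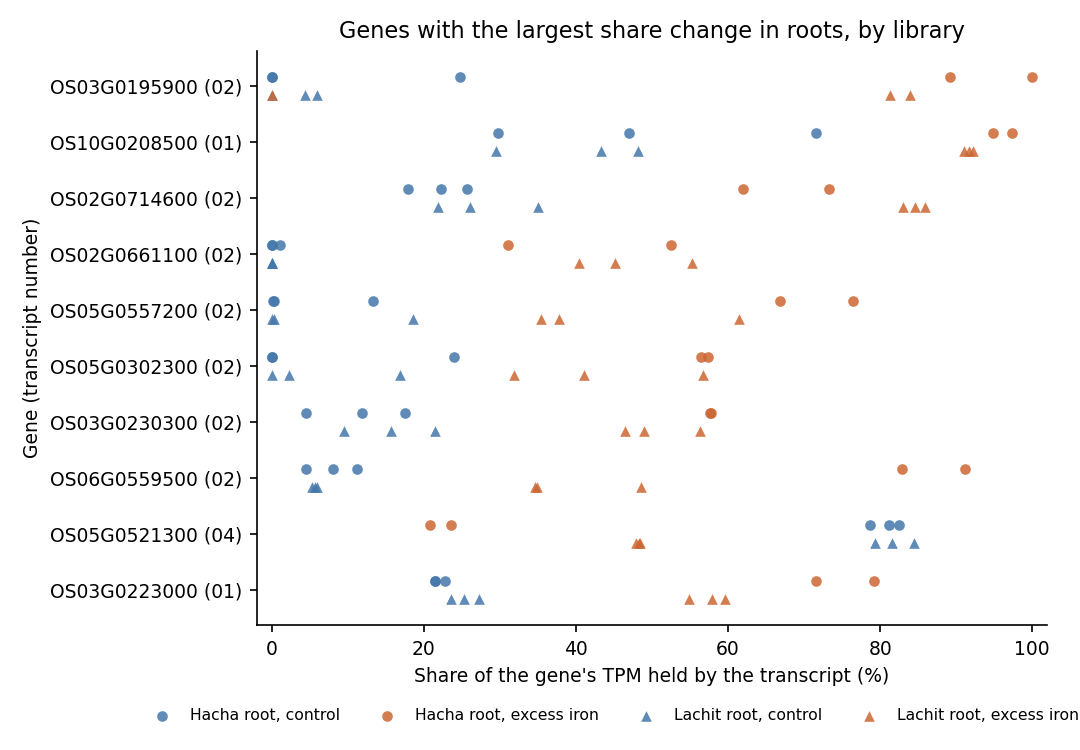
Share of the gene's TPM held by 1 transcript (x axis, percent) in the 10 genes with the largest change in roots (y axis, gene and transcript number), with 1 point per library. Circles are Hacha, triangles Lachit, blue is control and orange is excess iron. In 9 genes the orange points lie to the right of the blue ones, except for 1 Lachit library of OS03G0195900 at 0.0%. In OS05G0521300 the transcript drawn loses share and its orange points lie to the left.

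At the edge of the rule the changes were modest. The last genes inside were OS07G0497000, OS07G0613300 and OS11G0106200, where the smaller of the changes in the 2 varieties was 20.04, 20.04 and 20.03 percentage points. The nearest genes outside were OS06G0111400, OS04G0414100 and OS12G0605800, at 19.96, 19.86 and 19.86 points. In OS07G0497000 transcript 02 held 41.5%, 41.3% and 30.9% in control roots of Hacha and 60.7% and 60.8% under excess iron. In the neighbouring OS06G0111400, outside the list, transcript 02 held 40.2%, 40.8% and 39.1% against 65.6% and 61.6%. A minimum of 15 points would have taken 427 genes and one of 25 points 56.

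Over the whole list the change of the group means was larger in Hacha, but not against every Lachit library. In excess-iron roots the median share of the transcript that gained was 53.2% and 49.2% in Hacha and 55.3%, 37.5% and 42.6% in Lachit. Lachit library 1 thus stood above both Hacha libraries. The median absolute change was 28.2 points in Hacha and 23.3 points in Lachit, and 120 of the 159 genes changed more in Hacha. Taken alone, 597 of the 3507 eligible genes held a transcript past 20 points in Hacha and 223 in Lachit. A transcript passed in both varieties with opposite direction in 3 genes. In control roots the share of the transcript followed differed by less than 10 points between their means in 139 genes, with a median difference of 3.38 points. The libraries of the groups did not overlap in 155 genes in Hacha and 148 in Lachit. Among the other eligible genes this held for 60.6% and 36.6%, a comparison that the choice of genes fixes.

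**Figure D2:**
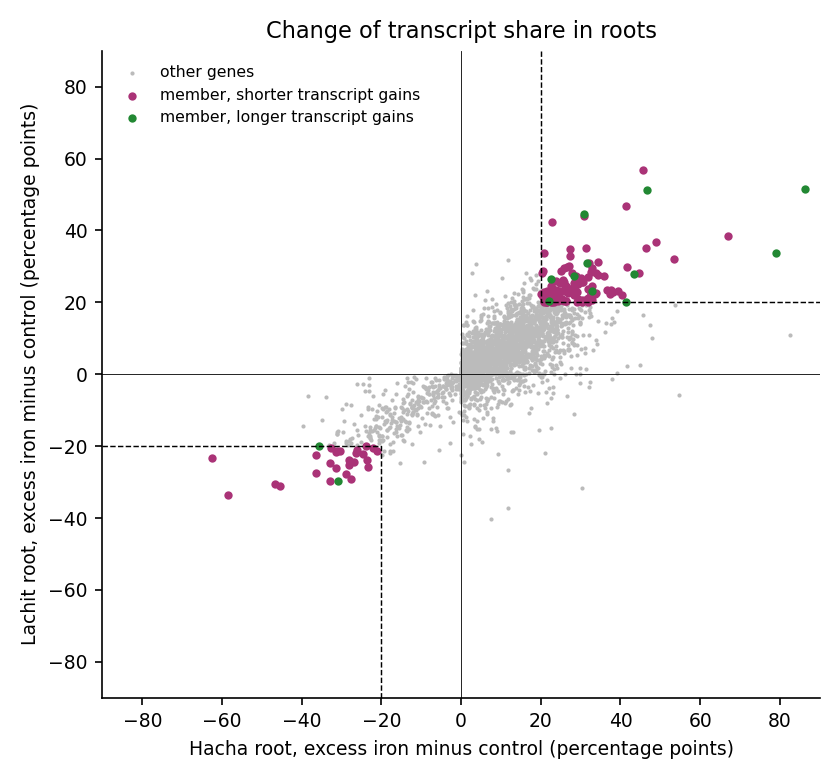
Change of a transcript's mean share in roots, excess iron minus control, in Hacha (x axis, percentage points) and Lachit (y axis, percentage points), with 1 point per gene. Coloured points are the 159 genes and grey points the 3348 other eligible genes, each with the transcript that changed most in the same direction. Dashed lines mark the rule at 20 points. Most coloured points lie near that edge, and 120 of them are farther from 0 on the x axis than on the y axis.

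Among the abundant genes of the list with another leading transcript in both varieties, the root total was higher under excess iron in most. OS01G0292200 on chromosome 1 had 130, 93.4 and 95.3 TPM in control roots of Hacha and 430 and 632 TPM under excess iron. Its transcript 01 (1785 bases) held 59.1%, 58.6% and 71.7% against 17.3% and 18.2% in Hacha, and 61.5%, 62.8% and 56.1% against 24.9%, 31.9% and 30.2% in Lachit. The leader by TPM under excess iron was transcript 03 (346 bases), with means of 55.0% in Hacha and 42.5% in Lachit, against 5.3% and 12.7% in control. Counted in reads, transcript 01 held 79.8% and 48.3% of the gene in control and excess-iron roots of Hacha. In those of Lachit it held 80.6% and 61% of the reads. With shares of estimated counts this gene did not meet the rule. In OS05G0495300 on chromosome 5, transcript 01 (5035 bases) gave way to transcript 07 (575 bases), which held means of 64.6% and 54.7% of the TPM in excess-iron roots of Hacha and Lachit against 24.6% and 27.5% in control. Transcript 01 still held 64.9% and 67.9% of the reads there. The steps were smaller in OS06G0126000 and OS08G0162100, on chromosomes 6 and 8. In OS08G0162100 transcript 02 (1710 bases) went from 39.9%, 35.7% and 32.2% to 62.1% and 54.8% in Hacha and from 34.1%, 32.6% and 37.2% to 65.8%, 45.9% and 52.8% in Lachit, at a total of 98.2 ± 0.97 and 82.3 ± 5.3 TPM (SD, n = 3 and 2) in Hacha and 85.2 ± 16 and 85.8 ± 10 TPM (n = 3 each) in Lachit.

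The transcript that gained was nearly always the shorter one. The transcript with the largest mean gain was shorter than the one with the largest mean loss in 146 genes and longer in 13. Among the 3348 other eligible genes it was shorter in 2226, longer in 1040 and equal in 82, so the share was 91.8% in the list and 66.5% outside. The median length was 1496 bases for the gaining and 2620 bases for the losing transcript, with a median difference of -1077 bases, against -142 bases outside the list. The losing transcript carried the number 01 in 131 genes (82.4%, against 69.1% outside) and the gaining one in 8 (5.03%, against 25.1%). By the spread of transcript lengths within a gene, the list held 14.1% of the 376 eligible genes with a spread of over 2000 bases, 5.19% of those with over 1000 and up to 2000 bases, 2.95% with over 300 and up to 1000, 1.75% with over 100 and up to 300 and 3.32% with 100 bases or fewer.

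**Figure D3:**
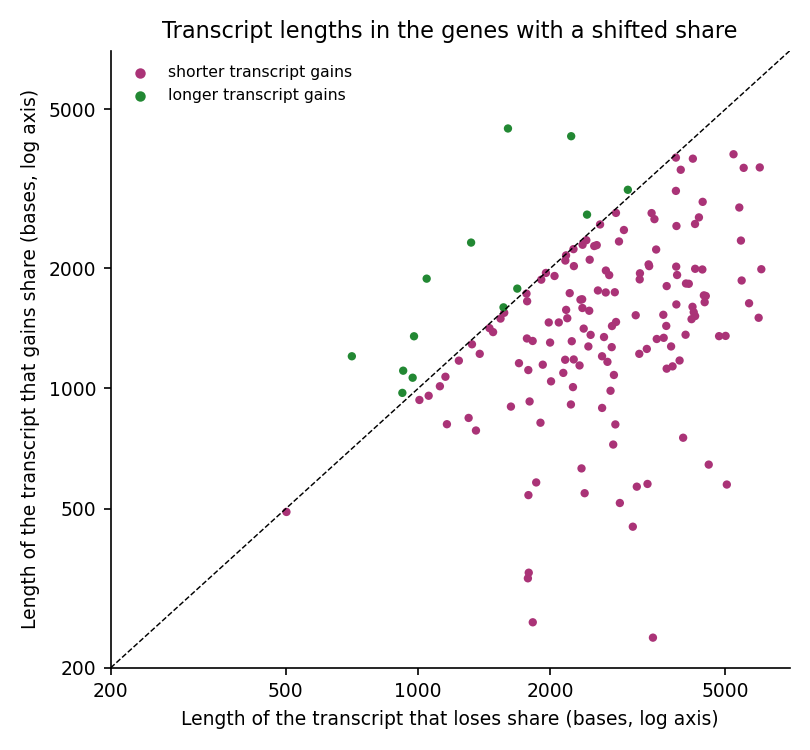
Length of the transcript that gains share (y axis, bases, log axis) against the length of the one that loses share (x axis, bases, log axis) in the 159 genes. The dashed line marks equal length. The 146 points below the line gain the shorter transcript, and the 13 green points above it gain the longer one.

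The 13 genes that gained the longer transcript include several of the widest shifts. OS03G0195900, OS10G0208500 and OS06G0559500 are among them, although in OS10G0208500 the transcript that gains stands between the lengths of the other two. When shares were taken from estimated counts, with no division by length, 12 of these 13 genes and 52 of the 146 others still met the rule. That rule chose 69 genes in all, of which 64 were in the list. Of the 10 genes with the largest change, 8 still met it, and the exceptions were OS03G0230300 and OS05G0302300 with their transcripts of under 300 bases. Leaving out all transcripts of under 300 bases, an alternative added after the data were seen, kept 157 genes.

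The total level of these genes differed little on balance between control and excess-iron roots. On log2(TPM + 0.5) of the group means, the median change was 0.03 in Hacha and 0.12 in Lachit, against -0.25 and -0.06 for the other eligible genes. The total changed by less than 1 on that scale in 116 genes in Hacha and 129 in Lachit. It was higher by at least 1 in 27 and 24 genes and lower by at least 1 in 16 and 6. These counts were not made for the other eligible genes, so only the medians are compared. OS02G0817500 on chromosome 2 had the next largest lower total after OS02G0714600 when genes are ranked by the smaller change of the 2 varieties: 58.7, 66.7 and 71.3 TPM in control roots of Hacha against 8.97 and 11.6 TPM, and 46.3, 53.4 and 79.1 TPM in those of Lachit against 11.1, 10.7 and 12.6 TPM.

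In TPM, the gain of one transcript and the loss of the other usually came together. Both transcripts were picked by their share changes in these same root values, so the choice largely sets the counts below. They are a description, and the other eligible genes were not counted in this way. The TPM of the gaining transcript was higher and that of the losing one lower under excess iron in 112 genes in Hacha and 113 in Lachit. Both were higher in 36 and 37 genes, and both lower in 11 and 9. The median level of the gaining transcript went from 6.31 to 17.2 TPM in Hacha and from 4.90 to 12.9 TPM in Lachit. That of the losing transcript went from 21.9 to 12.9 TPM and from 18.2 to 13.0 TPM.

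The shift differed between libraries of the same group, and it went along with a lean towards shorter transcripts in genes outside the list. The median share of the gaining transcript over the 159 genes was 18.0% to 24.4% in the 6 control root libraries. It was 53.2% and 49.2% in excess-iron roots of Hacha and 55.3%, 37.5% and 42.6% in those of Lachit. Over the other eligible genes, the median share of the shorter of the gaining and the losing transcript was 35.2% to 38.6% in control roots. It was 48.7% and 45.7% in excess-iron roots of Hacha and 49.0%, 40.3% and 43.9% in those of Lachit, in the same order as in the list. Without Lachit excess-iron library 1, the library with the highest shares, the rule chose 74 genes, 68 of them in the list. Without library 2, the lowest, it chose 272, with 156 of the list. All 10 of the genes with the largest change were kept in both cases.

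Genes with a single annotated transcript, in which no share can change, leaned the same way by length. In Hacha roots their median log2 change was -0.27 in the longest 20% of genes (2067 bases and over) and between -0.18 and -0.13 in the other 4 length groups. In Lachit roots it was -0.15 against -0.06 to 0.05. In leaves it was 0.01 against 0.22 to 0.34 in Hacha and 0.22 against 0.33 to 0.38 in Lachit. The mean fragment length of the libraries lay between 173.7 and 189.2 bases. The part of these differences in the shifts of share was not tested.

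**Figure D4:**
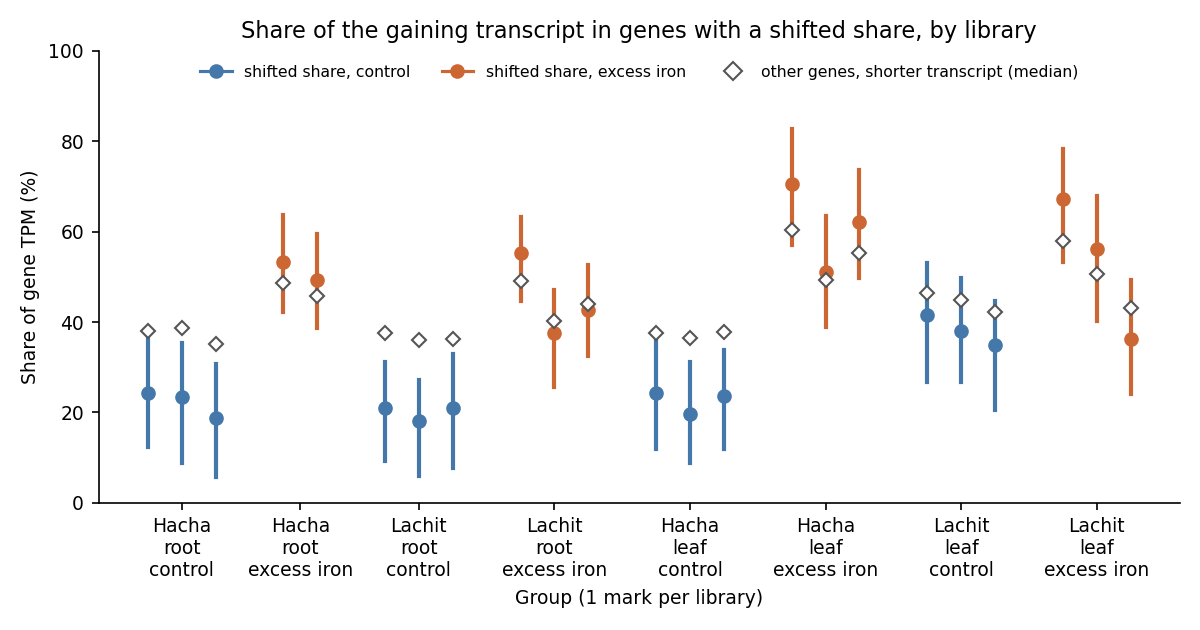
Share of the gaining transcript (y axis, percent of gene TPM) over the 159 genes in each of the 23 libraries, by group (x axis). Points are medians and bars the middle 50% of the genes, blue for control and orange for excess iron. Open diamonds are the median share of the shorter transcript in the other eligible genes. Lachit control leaves (35.0% to 41.6%) stand above the other controls (18.0% to 24.4%), and Lachit excess-iron leaf library 3 (36.3%) stands among them.

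In leaves, which took no part in the choice, the same transcripts moved in the same direction in most genes, with the larger median in Hacha. Of the 159 genes, 150 had the root direction in Hacha leaves and 151 in Lachit leaves, with median changes of 39.6 and 15.3 points. Among the other eligible genes 77.9% and 72.0% had it, with medians of 10.8 and 3.06 points. The change reached 20 points in the root direction in 140 genes in Hacha and in 31 in Lachit. The other eligible genes were not counted in this way, and their median change was also larger in Hacha. In Hacha leaves 2 genes moved at least 20 points the other way: OS03G0195900, at under 1 TPM in all 12 leaf libraries, and OS10G0335200, named after its value was seen. The median share of the gaining transcript was 19.6% to 24.4% in control leaves of Hacha and 51.0% to 70.6% under excess iron. In Lachit it was 35.0% to 41.6% in control and 67.1%, 56.1% and 36.3% under excess iron, so library 3 stood with the controls. Genes outside the list leaned the same way. Their median share of the shorter transcript was 36.5% to 37.8% in control leaves of Hacha and 60.4%, 49.2% and 55.3% under excess iron. In Lachit leaves it was 42.3% to 46.5% in control and 58.0%, 50.6% and 43.0% under excess iron. The part of this lean in the leaf changes and calls was not tested.

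For the test, reads of the transcript were set against reads of the rest of its gene, library by library, with edgeR's quasi-likelihood test and Benjamini-Hochberg adjustment over all 10718 transcripts tested. All 159 genes were tested. In Hacha leaves the share of the followed transcript changed in the root direction in 123 genes and in the other direction in none. Of all transcripts tested, 37.4% were called in Hacha leaves, and 42.6% of the followed transcripts of all eligible genes tested were called in the root direction. At an unadjusted p below 0.05 the count was 129, against 48.3% of all transcripts tested. The median change over the 159 genes was 2.79 on the log2 odds scale, the log2 of the reads on the transcript over those on the rest of the gene. The libraries did not overlap in 138 genes, against 62.5% of the followed transcripts of all eligible genes.

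Most calls in Hacha leaves were in genes that gained a shorter transcript, which make up 91.8% of the list. They covered 121 of the 146 genes that gained the shorter transcript and 2 of the 13 that gained the longer one. The median leaf change in the root direction was 40.9 points in the former and 5.06 points in the latter. Of the 31 genes whose transcripts differ by at most 300 bases, 15 were called. The other eligible genes were not split in these ways. Over all eligible genes tested, 42.6% of the followed transcripts were called in the root direction. OS04G0682800 on chromosome 4 showed one of the widest changes: transcript 02 (2580 bases, against 4263 for transcript 01) held 1.5%, 0.7% and 1.1% in control leaves of Hacha and 82.9%, 58.0% and 69.3% under excess iron. That is a log2 odds change of 7.85 (edgeR quasi-likelihood test, SE 0.926, adjusted p = 0.00148), with all 3 treated libraries above the controls. In OS03G0223000 transcript 01, already the leader in control leaves, went from 70.3%, 69.4% and 69.2% to 94.6%, 89.9% and 89.1% in Hacha (log2 odds 2.49, SE 0.401, adjusted p = 0.00484 in the same edgeR test). With edgeR's diffSpliceDGE test, which compares a transcript with its gene's average, the call of OS03G0223000 was lost (adjusted p = 0.457) and 78 of the 159 genes were called, against 14% of all transcripts tested.

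Several of the widest root shifts were not matched in leaves, or moved the same way there without being called. In OS02G0714600 transcript 02 held 58.6%, 51.9% and 61.6% in control leaves of Hacha and 0.8%, 57.6% and 61.4% under excess iron, so library 1 alone stood apart. The log2 odds change was -1.29 (adjusted p = 0.486, edgeR quasi-likelihood test), and 0.12 without that library. In OS06G0559500 the means were 15.2% ± 7.3 and 17.8% ± 4 (SD, n = 3 each) in Hacha leaves, and transcript 03 led in both solutions. In OS05G0521300 transcript 04 was low in leaves of both solutions and varieties, between 12.8% and 35.2%. It went from 22.6%, 18.8% and 21.5% to 35.1%, 35.2% and 33.7% in Hacha leaves, against the root direction. In Lachit leaves it went from 29.3%, 31.7% and 31.7% to 12.8%, 25.6% and 17.1%, in the root direction. The libraries did not overlap in either variety, and neither change was called (adjusted p = 0.104 and 0.594, edgeR quasi-likelihood test). OS03G0230300 went from 13.9%, 12.3% and 0.0% to 39.5%, 30.8% and 37.2% in Hacha leaves, with no overlap (log2 odds 1.77, SE 0.992, adjusted p = 0.185 in the edgeR test). The control shares of this gene rest on 26, 1 and 0 reads of the transcript.

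In Lachit leaves 1 of the 159 genes was called, in the root direction, against 0.159% of all transcripts tested and 0.148% of the followed transcripts of all eligible genes in the root direction. At an unadjusted p below 0.05 the count was 21 of 159 genes, against 9.61% of all transcripts tested. The groups of libraries did not overlap in 23 genes, against 16% of the followed transcripts of all eligible genes. The median log2 odds change in the root direction was 1.04, with 148 genes on that side. The gene called was OS11G0106200 on chromosome 11, one of the last inside the rule in roots. Its transcript 03 (1467 bases) had no reads in any of the 12 control libraries of either organ. It thus met the minimum of 10 reads through the excess-iron libraries alone, and the test sets them against a count of 0. Under excess iron it held 67.6%, 48.7% and 57.2% in Hacha leaves and 67.0%, 41.9% and 23.5% in Lachit leaves, from 342, 197 and 191 reads and 363, 151 and 101 reads. In roots it held 34.6% and 28.8% in Hacha and 31.1%, 3.6% and 25.3% in Lachit. The adjusted p was 0.00436 in Hacha leaves and 0.0421 in Lachit leaves (edgeR quasi-likelihood test). The Lachit call was lost in 10 of the 12 fits that left out 1 leaf library, at adjusted p up to 0.186, and then no gene was called. Without Lachit excess-iron library 3, whose median share stood with the controls, 2 of the 159 genes were called. No share of all transcripts is given for that fit. The other transcripts of this gene differ from it in length, at 4185 and 2819 bases, and together held all of its TPM in control.

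The test of the difference between the varieties called 1 gene, against 0.317% of all transcripts. In OS12G0284000 on chromosome 12, transcript 04 (1313 bases), the shortest of 4, held 0.3%, 0.0% and 0.0% in control leaves of Hacha and 58.0%, 36.7% and 49.0% under excess iron. In Lachit leaves it held 26.2%, 22.0% and 18.2% in control and 54.1%, 39.5% and 23.7% under excess iron. The groups overlap in Lachit and not in Hacha, and they differ already in control. The adjusted p of the difference was 0.0288 (edgeR quasi-likelihood test), and it was lost in 8 of the 12 fits without 1 library, at up to 0.0897. At an unadjusted p below 0.05 the difference covered 63 of the 159 genes, against 17.2% of all transcripts tested. Over the 159 genes, the fitted change in the root direction was smaller in Lachit in all but 14. Over all transcripts tested, the median absolute log2 odds change was 1.41 in Hacha leaves and 0.592 in Lachit leaves. All genes share the same 12 libraries, so that tally is a description. The count of called genes was 2 without Lachit excess-iron library 1 or Hacha control library 1, and 0 in the 8 fits that lost OS12G0284000. For those fits, too, the share of all transcripts called is not given. A call in Hacha and none in Lachit is therefore not shown to be a difference for the other genes.

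Control leaves of the varieties differed in 4 of the genes, against 3.76% of all transcripts tested, and 55 had an unadjusted p below 0.05, against 19.4%. In all 4 the transcript that gains in roots was higher in control leaves of Lachit. In OS02G0817500 transcript 02 held 6.7%, 8.4% and 19.3% in Hacha and 67.2%, 69.3% and 81.8% in Lachit (log2 odds 4.56, SE 0.492, adjusted p = 0.000655, edgeR quasi-likelihood test). In OS04G0682800 it was 1.5%, 0.7% and 1.1% against 34.8%, 31.2% and 16.4% (adjusted p = 0.0106 in that test), and in OS06G0199200 on chromosome 6 transcript 06 held 10.7%, 7.6% and 9.0% against 36.8%, 27.0% and 23.6% (adjusted p = 0.0209). The same transcript of OS12G0284000 as above was the fourth (adjusted p = 0.0017). With only the control groups in the edgeR fit, 30 of the genes were called, all in that direction, against 9.75% of all transcripts tested in that fit. With all 4 leaf groups but without Lachit excess-iron library 3, the count was 11, against 4.74%. The shorter transcripts of genes outside the list were also higher there, with medians of 42.3% to 46.5% in control leaves of Lachit against 36.5% to 37.8% in those of Hacha. The part of that lean in these calls was not tested.

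**Figure D5:**
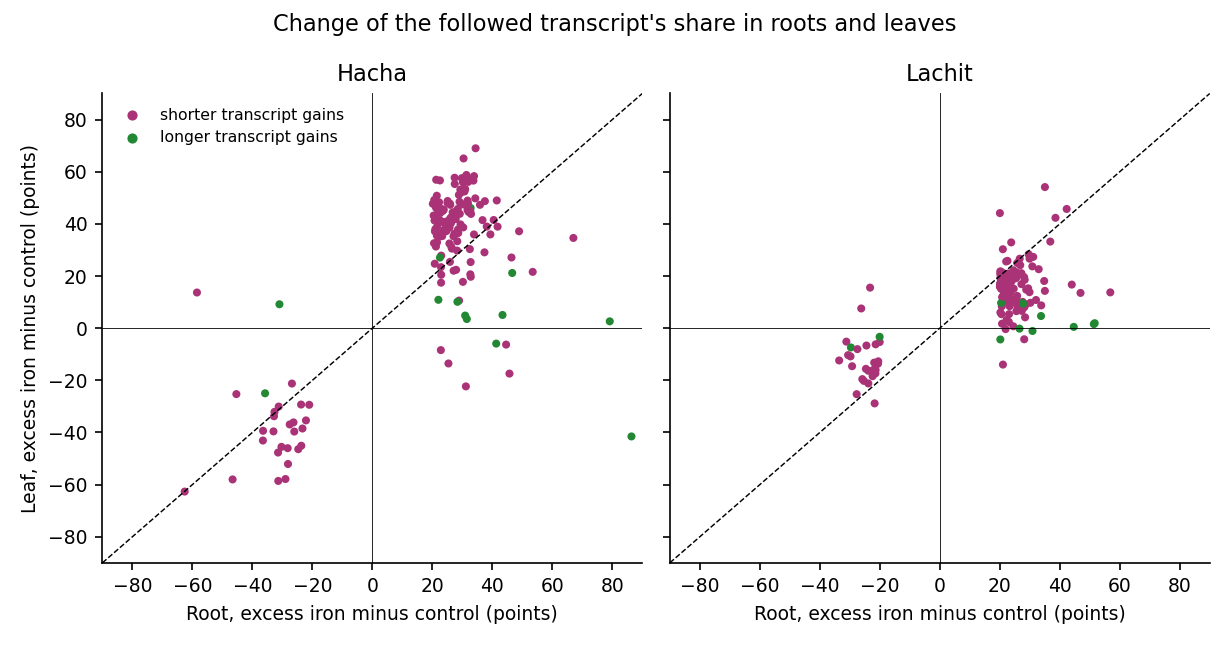
Change of the followed transcript's mean share in leaves (y axis, percentage points) against that in roots (x axis, percentage points), excess iron minus control, for the 159 genes in Hacha (left) and Lachit (right). The dashed line marks equal change. In Hacha 120 genes changed more in leaves than in roots, in Lachit 12, and the other eligible genes were not counted for this. The green points, genes that gain the longer transcript, have median leaf changes in the root direction of 5.06 and 3.31 points.

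The rule applied to leaves in place of roots chose 110 of 3380 eligible genes. Of the 159 genes, 139 passed the level condition in leaves and 30 met the whole rule, 18.9% of the root list and 27.3% of the leaf list. Of the 3006 genes eligible in both organs, 3.29% met the leaf rule. In 27 of the 30 genes it was the same transcript in the same direction. Across the 159 genes the root and leaf changes of the followed transcript had a Pearson correlation of 0.71 in each variety. This is a description, since a positive and a negative cluster set it and all genes share the same libraries.

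The total level of the genes in leaves was tested on counts summed by gene, again with edgeR's quasi-likelihood test. In Hacha leaves 60 of the 159 genes rose and 48 fell, against 32.4% and 32.9% of the 25505 genes tested. In Lachit leaves 37 rose and 25 fell, against 19.7% and 19.1%. In either direction, 65.3% of all genes tested were called in Hacha and 38.7% in Lachit. In 30 genes the total rose in both varieties, in 21 it fell in both and in 1 the directions were opposite, against 15.8%, 15.9% and 0.71% of all genes tested. A called change of share in Hacha leaves went with a called rise of the total in 44 genes, with a fall in 42 and with neither in 37. The medians of the log2 fold changes were 0.16 in Hacha and 0.05 in Lachit, against 0.00 and 0.02 over all genes tested. Without 1 library the Lachit count of 62 lay between 35 and 83. It was 40 without excess-iron library 2, 39, 35 and 36 without control libraries 1, 2 and 3, and 83 without excess-iron library 3. These counts are not set against the share of all genes called in the same fits.

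Of the genes whose leaf total changed in both varieties, those with the largest falls and rises, ranked by the smaller change of the varieties, were OS02G0661100, OS02G0173100, OS03G0299800 and OS03G0230300. OS02G0661100 fell from 64.4, 52.8 and 57.4 TPM to 9.31, 6.53 and 4.82 TPM in Hacha leaves and from 55.7, 46.1 and 49.6 TPM to 2.32, 2.76 and 4.28 TPM in Lachit leaves. The log2 fold changes were -3.14 (SE 0.293, adjusted p = 1.45e-05, edgeR) and -4.37 (SE 0.312, adjusted p = 3.41e-05). Its transcript 02 went from 3.3%, 0.0% and 0.0% to 59.8%, 25.7% and 64.7% in Hacha leaves, as it had in roots, where the total differed by -0.46 and -0.32 on the log2 scale. In Lachit leaves transcript 02 held 16.0%, 26.5% and 18.9% in control and 39.8%, 49.8% and 12.3% under excess iron. Those libraries overlap, and the change was not called (adjusted p = 0.841, edgeR quasi-likelihood test). OS02G0173100 on chromosome 2 fell in leaves by 3.95 in Hacha and by 2.47 in Lachit on the log2 scale (adjusted p = 1.01e-05 and 0.00035, edgeR quasi-likelihood test). Its leading transcript 02 went from 71.5%, 88.0% and 75.8% to 14.6%, 47.6% and 43.9% in Hacha leaves. In Lachit leaves it went from 55.3%, 63.2% and 63.4% to 28.5%, 35.6% and 62.7%, with overlap and no call (adjusted p = 0.571 in the edgeR test).

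OS03G0299800 on chromosome 3 rose in leaves from 1.93, 0.676 and 0.943 TPM to 25, 14.3 and 13.1 TPM in Hacha and from 2.14, 2.12 and 1.85 TPM to 12.0, 12.3 and 15.0 TPM in Lachit. The log2 fold changes were 4.04 (SE 0.397, adjusted p = 1.84e-05, edgeR) and 2.39 (SE 0.368, adjusted p = 0.000972). OS03G0230300 rose in both varieties, by 4.57 (SE 1.54) and 5.28 (SE 1.6) on the log2 scale (adjusted p = 0.0225 and 0.0243, edgeR quasi-likelihood test). Its libraries were uneven: 95.7, 1.68 and 1.62 TPM in control leaves of Hacha against 761, 1036 and 926 TPM, and 3.13, 2.84 and 4.83 TPM in those of Lachit against 174, 379 and 10.7 TPM. Hacha control library 1 and Lachit excess-iron library 3 stand apart in this gene, and all treated libraries remained above all controls of the same variety. The call of this gene was lost without Hacha control library 3 (adjusted p = 0.0535) and, in Lachit, without excess-iron library 2 or any 1 control library (adjusted p from 0.0774 to 0.082).

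The difference between the varieties in the response of the leaf total was called in 25 of the 159 genes, against 16.5% of all genes tested. The change was higher in Lachit in 8 genes and lower in 17, against 8.5% and 7.96% of all genes tested. OS10G0208500 was one of them: its total did not pass in Hacha leaves, at 2.36 ± 0.15 and 1.73 ± 0.32 TPM (SD, n = 3 each), and fell from 10.8, 11.4 and 12.3 TPM to 3.61, 2.68 and 3.10 TPM in Lachit (difference -1.83 on the log2 scale, SE 0.241, adjusted p = 0.00364, edgeR quasi-likelihood test). In roots of both varieties the same gene was higher under excess iron. OS01G0292200 rose in Hacha leaves, by 0.64 on the log2 scale (edgeR, SE 0.204, adjusted p = 0.0174), and changed by -0.80 in Lachit leaves (SE 0.205, adjusted p = 0.0113). The difference was -1.44 (SE 0.289, adjusted p = 0.0126). The count of 25 depends on single libraries. It was 46 without Lachit excess-iron library 2, 8 and 12 without libraries 1 and 3 of that group, and 14 without Hacha excess-iron library 1. It was 5 and 6 without Hacha control libraries 2 and 3, and 5, 8 and 9 without Lachit control libraries 1, 2 and 3. The share of all genes called in each of those fits is not given. Whether it moved along with the count is therefore not shown.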

How the data were processed

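RNA was measured in 23 libraries of rice roots and leaves, prepared with Illumina's TruSeq RNA Sample Prep Kit v2 per the labels' protocols. The deposited file of each library lists every transcript with its length, effective length, estimated count and TPM value. The authors obtained the estimated counts and TPM values with kallisto, and also list bcl2fastq and the IRGSP-1.0 build, per the submitters' processing notes. The sources used here give no version or setting. Deposited TPM values, so named per the file headers, are scaled to length and library. The series-wide TPM table was left aside. Groups were taken from the titles, and libraries are numbered within each group.

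The 42346 transcripts were assigned to 35679 genes by identifier. Shares are means over libraries of a transcript's part of the gene's TPM. The followed transcript of a gene is the one whose smaller change over both varieties was largest. Members, gene lists and tests were chosen with earlier results of these data known. In leaves, rounded estimated counts of a transcript and of the rest of its gene were fitted with library and group-by-part terms over the 4 leaf groups (edgeR 4.0.16 quasi-likelihood test, R 4.3.3), after filterByExpr on gene sums and a minimum of 10 reads in each part over the leaf libraries. Gene sums were tested with TMM scaling. A call needed an adjusted p (Benjamini-Hochberg) under 0.05. The test returns no standard error. Each SE printed with an edgeR result is the absolute log2 change divided by the square root of the test's F statistic. The code was tested on simulated data.

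Genes were named by rule: the 10 largest root changes, 3 on each side of the threshold, the 6 most abundant with another leading transcript, those called in both varieties or in the difference of leaf shares, the 2 largest rises and falls of the total in each organ, and counts under 5. Replicates were not duplicates: the chi-square per transcript between libraries of a group was at least 10.5. A RefSeq table of ASM3414082v1 matched 1 identifier and none of the 159 genes, so no gene names, marker checks or sequences are given. Alternatives were other thresholds, estimated counts in place of TPM, limma 3.58.1 on log2 odds, edgeR's diffSpliceDGE, no filter, other groups in the fit, DESeq2 1.42.0 and its size factors, and each library left out.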

Additional observations from a re-analysis of the deposited data

Results flagged for a closer look

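The response of the leaf share to excess iron differed between the varieties in 1 of the 159 genes by a test of the difference itself. That gene was OS12G0284000, where the difference of the responses, Lachit minus Hacha, was -8.78 on the log2 odds scale (SE 1.29, adjusted p = 0.0288, edgeR quasi-likelihood test). The fitted size rests on 6, 0 and 0 reads of transcript 04 in control leaves of Hacha, against 376, 351 and 246 in those of Lachit, and depends on how the fit treats counts near 0.

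The response of the leaf total differed between the varieties in 25 of the 159 genes by the same kind of test, against 16.5% of all genes tested, which is a share near that of the list. The count lay between 5 and 46 when 1 library was left out, with no share of all genes given for those fits.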

How the results depend on the processing

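No paired analysis was possible because library numbers in the titles run through the series and are never shared between groups.

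The number of genes meeting the root rule was 69 with shares of estimated counts, 427 and 56 with minimum changes of 15 and 25 points, and 51 when the leading transcript had to differ in both varieties. It ranged from 74 to 272 when 1 library was left out. Genes called for the leaf share in Hacha numbered 78 with diffSpliceDGE and 96 to 127 without 1 library. In Lachit they numbered 3 and 2 with limma (offsets of 0.5 and 0.1 TPM), 2 with diffSpliceDGE, 0 with only the groups compared and 0 to 2 without 1 library. The difference gave 2 and 2 with limma, 6 with diffSpliceDGE and 0 to 2 without 1 library. Control leaves of the varieties gave 30 with only the groups compared, 14 and 11 with limma, 19 with diffSpliceDGE and 3 to 11 without 1 library. For leaf totals the ranges without 1 library were 88 to 114 in Hacha, 35 to 83 in Lachit and 5 to 46 for the difference. Of all transcripts tested, 14% were called with diffSpliceDGE in Hacha leaves and 9.75% with only the control groups compared. For control leaves without Lachit excess-iron library 3 it was 4.74%. No such share is given here for the other alternatives, so their counts do not set the list apart from other genes. The cause of the changes between settings was not tested.

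Changes of sign were confined to uncalled shares of 3 named genes. In Hacha leaves OS02G0714600 ranged from -2.76 to 0.12 when 1 library was left out, and was above 0 without excess-iron library 1. In Lachit leaves OS03G0195900 was at 0.18 and 0.19 with limma, 0.62 with diffSpliceDGE, 1.17 and 0.37 without excess-iron libraries 1 and 2, and as low as -4.68 without library 3. OS10G0208500 was at 1.35 and 0.90 with limma, 0.41 with diffSpliceDGE, 0.82 and 0.83 without excess-iron libraries 1 and 3, 0.28 and 0.29 without control libraries 2 and 3, and as low as -5.78 without excess-iron library 2. Shares of genes with few reads, such as OS03G0195900 in leaves, are limited by depth.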
